A study of Mus musculus with 2 samples.

Results

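Naive mRNA cluster 5 is 1 of 7 groups that the deposited mRNA cluster labels give for the conventional type 2 dendritic cells (cDC2s) of naive skin-draining lymph nodes. The study also describes cDC2 subclusters over both conditions, and the labels used here were not matched to those. Its members were taken as the cells of the naive library that carry the deposited label 5, with no further filter. These were 246 of the 2024 naive cells with such a label, or 12.2%, and they are compared below with the other 1778. The whole series held 11067 cells with expression values.

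The cells came from wild-type B6 (C57BL/6N) mice of both sexes, 6 to 12 weeks old, with no transgene or deleted allele in either group. The naive library was made from pooled nodes of unimmunized mice, described as popliteal in the design and as skin-draining in the tissue label. The papain library came from popliteal nodes taken 1 day after ovalbumin (OVA) plus the protease papain were injected into the rear footpads. In both, live B220- cells high for MHCII and positive for CD11c were sorted, stained with 12 DNA-barcoded antibodies and run by CITE-seq, which reads mRNA and antibody barcodes from the same droplet. There was 1 library per condition, and cells are not replicates of it. Clusters were made from the mRNA itself, so gene differences between cluster 5 and the rest describe the cluster and were not tested. The intervals below are 95% intervals and cover counting error only.

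cDC2s take up antigen in the skin and in the node and present it on MHCII to CD4 T cells. Some are resident in the node, and others migrate into it from the skin with CCR7, the receptor for lymph node chemokines. Migratory cells in the node are known for high CCR7, for the actin-bundling protein fascin (Fscn1) and for lowered synthesis of MHCII mRNA once the protein has been moved to the surface. CD301b is the lectin encoded by Mgl2 and marks a dermal subset of cDC2s. The study sorted its cDC2s in silico into CD301b-low, CD301b-intermediate and CD301b-high by the antibody.

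Surface protein in cluster 5 was read through the barcodes of the antibodies. Those of CD301b, CD11c, MHCII and CD172a are shown as listed, in lower case.
CD301b: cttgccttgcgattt
CD11c: gttatggacgcttgc
I-A/I-E (MHCII): ggtcaccagtatgat
CD172a: gattcccttgtagca
The same barcode is listed for the CD11b and the CD24 antibody, so their values were not read as separate proteins here.

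Cluster 5 was among the deeper clusters. Its cells held a median of 18848 unique molecular identifiers (UMIs), with a range of 7036 to 50395, against 13745 in the other labelled cells. The medians of the other clusters ran from 5929 in cluster 6 to 20541 in cluster 7. The median number of genes per cell was 3652, and 3032 in the others. After each cell had been thinned to 8355 UMIs, which left out 5 cells of cluster 5 and 198 of the others, these medians were 2348 and 2312. Mitochondrial genes took a median of 2.95% of UMIs in cluster 5 and 4.10% in the others. A UMI of the T cell genes Cd3e or Trac was present in 5 of the 246 cells and in 85 of the 1778. Of the 2 cell barcodes found in both libraries, 0 belonged to cluster 5.

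Cluster 5 had most of the Mgl2 mRNA, while its median CD301b antibody value was lower than that of the other labelled cells. By the antibody, 143 of the 246 cells were CD301b-low, a share of 58.1% (Clopper-Pearson interval 51.7 to 64.4%), 64 were CD301b-intermediate and 39 CD301b-high. Among the other labelled cells 29.0% were CD301b-low (26.9 to 31.1%). Clusters 4 and 7 had higher shares, at 64.5% (58.5 to 70.1%) and 68.0% (53.3 to 80.5%), and clusters 1, 2, 3 and 6 had 13.1 to 33.1%. The median CD301b antibody value was 0.53 on the deposited natural-log scale, with quartiles of 0.15 and 1.43, against 1.29 in the other cells. In counts the median was 17.5 antibody barcode counts per cell, beside 11 in cluster 4 and 183.5 in cluster 1. CD301b took 1.35% of the antibody counts of cluster 5 and 1.89% of those of the others. Clusters 3, 4 and 7 were lower, at 1.05, 0.61 and 1.04%. Mgl2 mRNA stood at 276 CPM (UMIs per 1000000 UMIs of the cells; interval 261 to 291), from 1348 UMIs in 106 cells. In the other cells it stood at 1.69 CPM, a ratio of 164 (121 to 226). The highest other cluster was cluster 6 with 33.3 CPM, from few UMIs in its 55 cells. The size of this ratio moved with the processing. It was 42.6 with the other 6 clusters weighted equally, 24.5 with 10 CPM added to both groups, 100.4 as a mean over cells and 338 without the 5 cells of each group richest in Mgl2. Thus 96.8% of all Mgl2 UMIs of the labelled naive cells lay in cluster 5, whereas the clusters with the highest CD301b antibody values were at 0.64 to 33.3 CPM.

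A UMI of Mgl2 was seen in 43.1% of cluster 5 cells (36.8 to 49.5%) and in 1.24% of the other cDC2s. In Langerhans cells (LCs) of the same library, which had few CD301b antibody counts, the share was 1.59%, and in cDC1s it was 2.25%. Thinned to 8355 UMIs the shares were 36.1% in cluster 5, 0.67% in the other cDC2s, 1.27% in LCs and 1.42% in cDC1s. Median depth was 10768 UMIs in LCs and 15807 in cDC1s. The share outside cluster 5 was therefore no higher than in cells that should lack the gene.

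**Figure D1:**
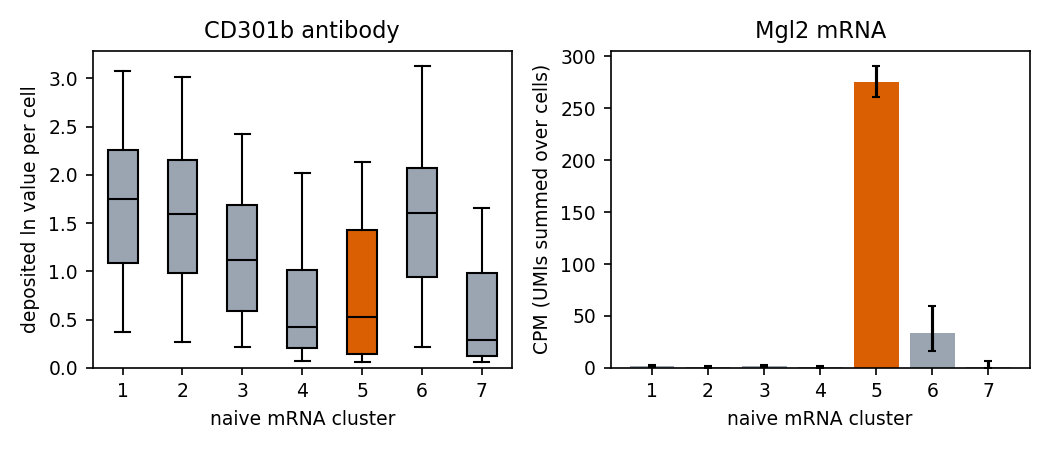
CD301b antibody values per cell (left; box, quartiles with the median; whiskers, 5th to 95th percentile of cells) and Mgl2 CPM from UMIs summed over cells (right; bars with exact Poisson 95% intervals) in the 7 naive mRNA clusters, with cluster 5 in orange. Cluster 5 has a median antibody value of 0.53 and 276 CPM of Mgl2, while clusters 1, 2 and 6 have the higher antibody values and at most 33.3 CPM.

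Within cluster 5, mRNA and protein of CD301b went together. Mgl2 stood at 703 CPM in the 39 CD301b-high cells, at 398 CPM in the 64 CD301b-intermediate cells and at 54.3 CPM in the 143 CD301b-low cells. Outside cluster 5 it was 0.57 CPM in 668 CD301b-high cells, 4.05 CPM in CD301b-intermediate and 0.30 CPM in CD301b-low cells. These 3 levels rest on 44 UMIs in 22 cells, too few to read an order. Over the 246 cells, the Spearman correlation of Mgl2 CPM with the antibody value was 0.63, and over the 1778 others it was 0.018. With an Mgl2 UMI in only 22 of the 1778, nearly all ranks were tied at 0. The second correlation could therefore not come near the first, and the 2 are not a contrast. Both are descriptions over cells of 1 library that share their depth and staining. Cells positive for the protein were therefore found with the mRNA in cluster 5 and almost without it elsewhere.

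At a 1.5-fold difference and at least 20 CPM in the higher group, 5642 genes were compared. Of these 1301 (23.1%) were higher and 1076 (19.1%) were lower in cluster 5, and the median log2 ratio was 0.067. The counts over gene lists given below are read beside these shares and were not tested. A gene under 20 CPM in the other cells could pass this filter only through cluster 5, and then could not be called lower. The reverse held for genes under 20 CPM in cluster 5. The 15 genes with the highest ratio, among those with at least 50 CPM in cluster 5 and a UMI in at least 10 of its cells, were Clec10a, Cd209a, Plaur, Mgl2, Fcrls, Lyz1, Lyz2, Mmp12, Cd209d, Sirpb1a, Slamf8, Cx3cr1, Csf1r, Cd300c2 and Plbd1. Their ratios ran from 67.9 to 720, and all 15 were lower in every other cluster. The group holds lectins, lysozymes, receptors of the monocyte and macrophage lineage and secreted enzymes.

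Lyz2, the lysozyme of myeloid cells, was the most abundant of them. It stood at 3763 CPM (3709 to 3818) in cluster 5 and was found in 192 cells. The other clusters had 9.96 to 147 CPM, and the ratio to all other cells was 113 (106 to 122). It was 68.9 with the other clusters weighted equally and 32.3 among CD301b-low cells only. Its neighbour Lyz1 had 405 CPM against 3.33, but the 5 cells richest in it held 48.1% of its UMIs. Reads of such close paralogs can be assigned to either copy, so the split between Lyz1 and Lyz2 is uncertain. The same holds for Mgl2 and Clec10a and for Cd209a and Cd209d.

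Cd209a, a DC-SIGN family lectin used as a marker of cDC2s and of monocyte-derived DCs, stood at 257 CPM (243 to 272) in 120 cells of cluster 5 and at 0.61 CPM in 11 of the other cells. Clec10a, which encodes the other macrophage galactose-type lectin (CD301a), had 110 CPM (101 to 120) from 539 UMIs, while the 1778 other cells together gave 0.15 CPM in 4 cells. Cluster 6 was the next highest for both lectins, with 21.2 CPM of Cd209a and 3.03 CPM of Clec10a. That cluster held only 330075 UMIs in 55 cells, so these levels rest on few UMIs. Its cells had a median of 0 CPM of the leading genes together. Cd209d had 210 CPM against 2.22 CPM.

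Receptors followed. Plaur, the urokinase receptor, had 288 CPM against 1.72 CPM and a UMI in 168 cells. Csf1r, the receptor for the macrophage growth factors M-CSF and IL-34, had 137 CPM against 1.99 CPM, and the fractalkine receptor Cx3cr1 had 61.8 CPM against 0.80 CPM. Cd300c2 and Sirpb1a, which encode activating receptors of myeloid cells, had 131 and 75.1 CPM against 1.92 and 0.84 CPM. Slamf8 had 90.6 CPM against 1.11 CPM. Fcrls, a scavenger receptor-like gene of Fc receptor type, had 68.1 CPM against 0.50 CPM, and 41.4% of its UMIs lay in 5 cells. Mmp12, the macrophage elastase, stood at 264 CPM and the phospholipase Plbd1 at 466 CPM, against 2.34 and 6.86 CPM. Plbd1 was the most evenly spread, with a UMI in 223 of the 246 cells and 5.89% of its UMIs in the richest 5.

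Several of these genes lie near each other on mm10. Lyz2 (chr10:117277541-117282272) and Lyz1 (chr10:117287795-117292868) are 5.52 kb apart. Mgl2 (chr11:70130125-70137542) and Clec10a (chr11:70166623-70170836) are 29.1 kb apart, and Cd209a (chr8:3743395-3748984) and Cd209d (chr8:3871824-3878548) 123 kb apart.

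A promoter window of 300 bases, from 250 before to 50 after a start of the gene in RefSeq (GRCm38.p6), was matched for 13 of the 15 leading genes (all but Clec10a and Csf1r), and 3 short motifs were counted in it on both strands. GAGGAA, the core bound by PU.1 (Spi1), was in 7 of the 13, and in 28.3% of the 27025 promoters of all genes. CCAAT was in 4 of 13 against 37.9%, and CACCC, a core bound by KLF factors, in 8 of 13 against 56.7%. Among the lowest genes the counts were 3, 4 and 8 of 10. The matches are letters in a window and show no binding. The windows of Plaur (chr7:24462233-24462532, plus strand) and Mgl2 (chr11:70130107-70130406, plus strand) are given with GAGGAA or its complement in capitals, as those of the leading receptor and of the antibody's target.
Plaur: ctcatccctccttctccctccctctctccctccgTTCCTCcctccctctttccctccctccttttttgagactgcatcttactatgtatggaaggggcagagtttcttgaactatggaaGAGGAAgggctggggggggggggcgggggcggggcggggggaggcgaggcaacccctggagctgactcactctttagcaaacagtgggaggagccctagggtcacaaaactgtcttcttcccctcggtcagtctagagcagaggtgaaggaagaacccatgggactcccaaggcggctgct
Mgl2: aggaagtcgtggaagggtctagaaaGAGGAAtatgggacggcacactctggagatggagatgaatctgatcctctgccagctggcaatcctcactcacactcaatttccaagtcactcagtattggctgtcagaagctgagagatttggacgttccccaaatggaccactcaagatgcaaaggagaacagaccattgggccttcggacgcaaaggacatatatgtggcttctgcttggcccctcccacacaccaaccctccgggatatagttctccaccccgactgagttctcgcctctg

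The 15 genes with the lowest ratio, at 50 CPM or more in the other cells, were Calm4, Khdc1a, Mucl1, Gm10432, Slc22a23, Dscaml1, Cxcl1, Synpo2, Serpinb6b, Ltc4s, Ccl22, Sox4, Actn1, Slamf1 and Fxyd2. They were 7.23-fold to 32.5-fold lower in cluster 5, and 14 of the 15 were lower there than in every other cluster. The exception was Mucl1, which clusters 2 and 3 had at 0.32 and 0.23 CPM against 3.48 CPM in cluster 5. Ccl22, the ligand of CCR4, was the most abundant. It stood at 264 CPM in cluster 5, at 658 CPM in cluster 3, the lowest of the others, and at 5544 CPM in cluster 6, and over all others it was 7.60-fold lower in cluster 5. Serpinb6b, an inhibitor of serine proteases, had 86.1 CPM against 668 CPM. Ltc4s, the leukotriene C4 synthase, had 29.1 CPM against 223 CPM, and the neutrophil chemokine Cxcl1 had 29.1 CPM against 249 CPM. Calm4 was nearly missing, with 10 UMIs in 4 cells of cluster 5 and 66.6 CPM in the others. Actn1 and Synpo2, which encode actin-binding proteins, had 38.5 and 30.5 CPM against 285 and 237 CPM.

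**Figure D2:**
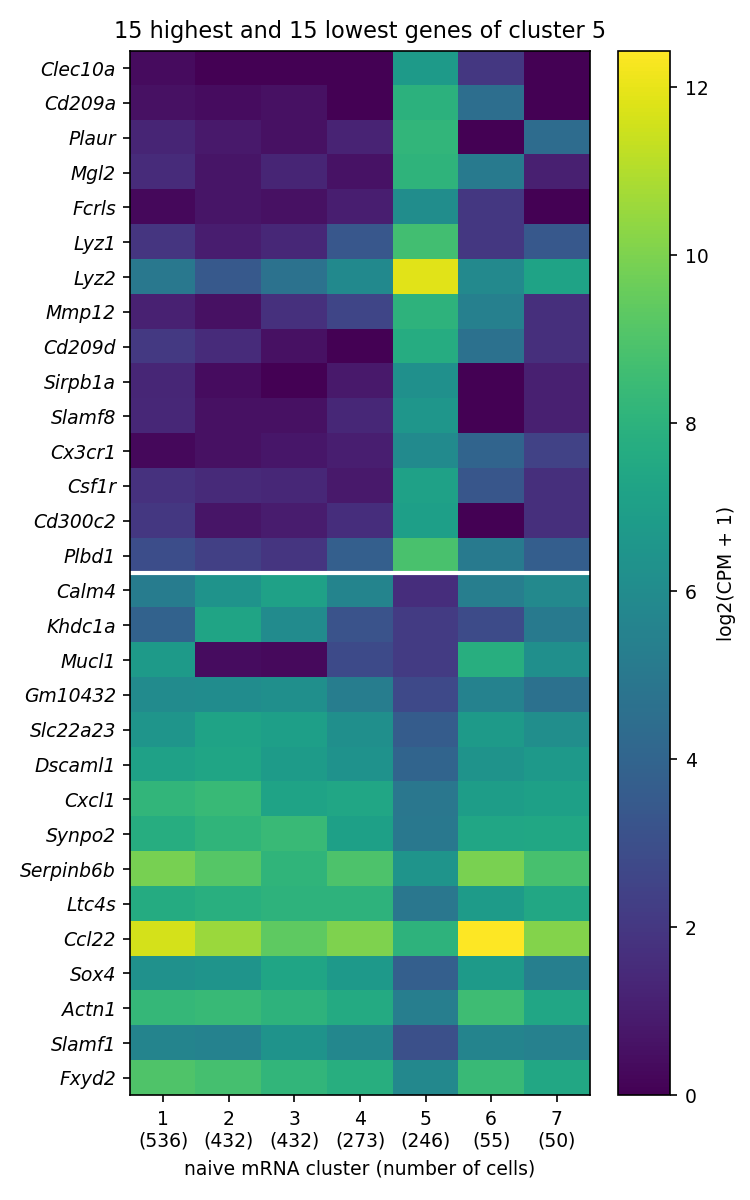
log2(CPM + 1) of the 15 genes with the highest (above the white line) and the 15 with the lowest ratio of cluster 5 to the other labelled naive cells, in each of the 7 naive mRNA clusters with their cell numbers. The upper genes are brightest in cluster 5, with Cd209a, Mgl2 and Mmp12 next highest in the 55 cells of cluster 6, and the lower genes are darkest in cluster 5 except for Mucl1.

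Genes of MHCII presentation were high in cluster 5 while the MHCII antibody value was low. Of 15 such genes 12 were at least 1.5-fold higher and 2 lower, with a median log2 ratio of 2.43. H2-Ab1, the beta chain of I-A, had 9317 CPM against 937 CPM, a ratio of 9.95 (9.79 to 10.1), and clusters ranged from 527 to 1948 CPM outside cluster 5. The invariant chain Cd74 stood at 22808 CPM against 6473 CPM. The transactivator Ciita had 189 CPM against 21.0 CPM and the peptide exchange factor H2-DMa 703 CPM against 55.9 CPM. H2-Ob, a subunit of the H2-DM inhibitor, had the highest ratio of the list, 34.3 (25.2 to 47.7). The cystatin Cst3 and the protease Lgmn were the members that were lower, at 1.69-fold and 1.67-fold. H2 genes are similar in sequence, and reads shared between them can move their levels.

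The MHCII antibody had a median of 3620 counts in cluster 5 and of 6053 to 7879 counts in the 6 other clusters. On the deposited scale, where a count is set against the cell's 12 antibodies, the median was 5.02 against 5.53 in the other cells, and 8.13% of cluster 5 cells lay above that second value. Cluster 7 was lower still on this scale, with 4.76. Over the 246 cells, the Spearman correlation of H2-Ab1 CPM with the antibody value was -0.13. MHCII and CD11c were also sort markers, so cells low for either were not sampled. Total antibody counts differed as well, with a median of 5434 in cluster 5 and 8001 in the others. MHCII itself made 72.0% of the antibody counts of cluster 5 and 89.3% of those of the others. The total is therefore not separate from the MHCII count, and the part of staining or depth in either was not tested.

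CD11c was high in cluster 5 in both readouts. The antibody had a median of 1173 counts and a value of 3.65 (quartiles 3.18 and 4.08), against 67 to 534 counts and 1.36 to 2.87 in the other clusters, and 95.9% of cluster 5 cells were above the median of the other cells. It took 19.1% of the antibody counts of cluster 5 and 4.69% of those of the others. Itgax, its mRNA, had 325 CPM against 34.5 CPM, a ratio of 9.44 (8.70 to 10.3). The Spearman correlation between the mRNA and the antibody was 0.39 over the 246 cells.

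**Figure D3:**
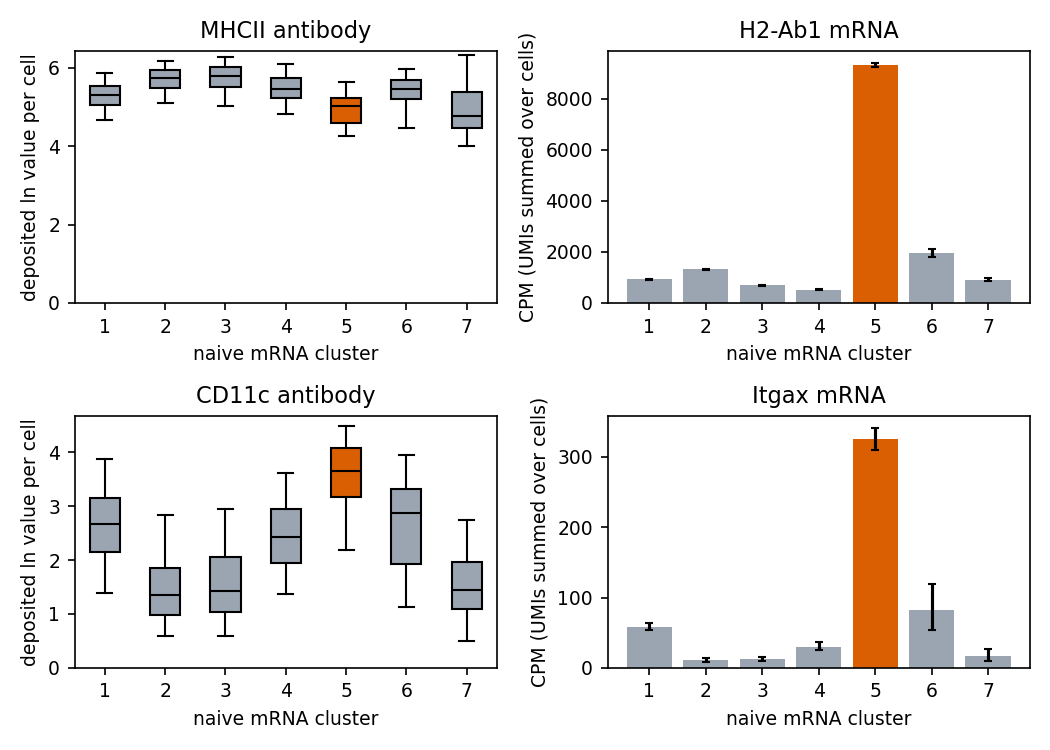
MHCII and CD11c antibody values per cell (left; quartiles, median and 5th to 95th percentile) and CPM of H2-Ab1 and Itgax (right; exact Poisson 95% intervals) in the 7 naive mRNA clusters, with cluster 5 in orange. Cluster 5 has 9317 CPM of H2-Ab1 with an MHCII median of 5.02, lower than in all clusters but 7, and has the highest CD11c value (3.65) and Itgax (325 CPM).

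The other antibodies differed less. CD172a, the SIRPa protein of cDC2s, had a median of 1.88 against 1.33 to 1.73 in the other clusters, and Sirpa mRNA 226 CPM against 73.2 CPM. CD326 (EpCAM) had 0.64 against 0.36 to 0.58 and Epcam mRNA 43.8 CPM against 4.02 CPM, whereas LCs reached a CD326 value of 3.42. XCR1, the marker of cDC1s, was at 0.11, within the 0.10 to 0.24 of the other cDC2 clusters and under the 1.26 of cDC1s. CD64 had a median of 0 counts, as in every other cluster, and Fcgr1 1.02 CPM. CD103 was at 0.13, Ly-6C at 0.17 and CD8a at 0.35, against 0.17, 0.20 and 0.53 in the other cells. The lower CD8a value held for the median but not for the mean over cells, which was 0.784 in cluster 5 and 0.788 in the others, and CD8a took 1.57% of the antibody counts of cluster 5 and 0.79% of those of the others. CD11b and CD24, which share a listed barcode, were at 0.55 and 0.49 in both groups. Of the 13 mRNAs of the antibody targets, 8 reached 20 CPM and all 8 were higher, Itgam with 40.3 CPM against 2.11 CPM among them. Itgam, Epcam and Mgl2 were under 20 CPM in the other cells, so they passed the filter only through cluster 5. Mgl2 is also a leading gene, picked for its ratio.

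Genes that mark the migratory, mature state of DCs were mostly lower. Of 20 such genes 16 were lower by at least 1.5-fold, 2 were higher, and the median log2 ratio was -1.65. Ccr7 stood at 1389 CPM against 4087 CPM, with 2754 to 5029 CPM over the other clusters, and was 2.94-fold lower. Fscn1 had 410 CPM against 2080 CPM. The 2 that were higher encode the costimulatory ligands of CD28: Cd86 with 250 CPM against 126 CPM, a ratio of 1.97 (1.85 to 2.11), and Cd80 with 95.6 CPM against 56.0 CPM, a ratio of 1.71 (1.53 to 1.89). Cd83 had 1354 CPM against 1919 CPM. A UMI of Ccr7 was still seen in 207 of the 246 cells, and in 1762 of the 1778 others.

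The study turned on CD40, IL-2 and CD25. Cd40 stood at 113 CPM in cluster 5 against 426 CPM, 3.78-fold lower, with 144 to 676 CPM over the other clusters. Il2ra, which encodes CD25, had 9.82 CPM against 67.9 CPM, 6.92-fold lower, with a UMI in 22 of 246 cells against 692 of 1778. Thinned to 8355 UMIs these shares were 5.59% and 31.0%. Il2 was at 4.30 CPM in cluster 5 and 3.76 CPM elsewhere, a ratio of 1.14 (0.68 to 1.85), so no difference was detectable at this depth. Pdcd1lg2, which encodes PD-L2, had 14.1 CPM against 10.3 CPM, and Cd274, which encodes PD-L1, 97.2 CPM against 193 CPM. Of the 15 genes of this list 13 reached 20 CPM, of which 4 were higher and 8 lower.

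Chemokines differed in both directions. Of 12 at 20 CPM, 6 were higher and 4 lower. The inflammatory chemokines Ccl4 and Ccl3 had 562 and 203 CPM against 13.0 and 13.1 CPM, and Ccl2, the ligand of CCR2, had 165 CPM against 4.14 CPM. Cxcl9 had 139 CPM against 5.98 CPM. Ccl5 had 1332 CPM against 6169 CPM, Ccl17, the other ligand of CCR4, 63.8 CPM against 396 CPM, and Cxcl16 478 CPM against 919 CPM. Ccl4 came from 104 cells, of which 5 held 32.6% of its UMIs, and Ccl2 came from 41 cells. Chemokine and migration receptors did as well, with 6 of 9 higher and 3 lower. Ccr2, which brings monocytes and their progeny out of the bone marrow and into tissue, had 219 CPM against 3.56 CPM, a ratio of 61.5 (49.7 to 76.8), and a UMI in 128 cells. Ptger4, a prostaglandin E2 receptor, and the oxysterol receptor Gpr183 were 2.58-fold and 2.01-fold lower.

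Of 11 cytokines at 20 CPM, 4 were higher and 4 lower. Il1b led by level, with 2111 CPM against 400 CPM, a ratio of 5.27 (5.13 to 5.42), and a UMI in 224 of 246 cells. Tgfb1 had 181 CPM against 19.7 CPM. Il15 had 18.2 CPM against 106 CPM, and Il12b 70.2 CPM against 138 CPM. Among 23 cytokine receptors 11 were higher and 4 lower. Csf1r led, followed by the IL-1 decoy receptor Il1r2 with 91.7 CPM against 5.44 CPM. The TSLP receptor chain Crlf2 had 106 CPM against 22.8 CPM. Il15ra had 23.1 CPM against 137 CPM. Of 10 genes of TNF ligands and receptors 3 were higher and 6 lower, the latter with Tnfrsf4 (OX40) and Tnfrsf9 (4-1BB) at 21.5 and 14.5 CPM against 109 and 74.0 CPM.

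Uptake receptors were mostly counted as higher. Of 15 C-type lectins and scavenger receptors at 20 CPM, 14 were higher and 1 lower, with a median log2 ratio of 5.34. Mgl2, Clec10a, Cd209a and Cd209d on this list are leading genes, picked for their ratio. The 25 listed members summed to 208 CPM in the other cells, mostly Ly75 and Clec7a. Most of the 15 therefore passed the filter only through cluster 5. Clec7a, the beta-glucan receptor Dectin-1, had 734 CPM against 53.0 CPM. The member that was lower was Ly75, which encodes DEC-205, a marker of cDC1s and of migratory DCs, with 26.8 CPM against 94.7 CPM. All 12 Fc receptor and complement genes at 20 CPM were higher, with a median log2 ratio of 4.66. Fcgr2b, the inhibitory IgG receptor, had 107 CPM against 7.89 CPM, and properdin (Cfp) 112 CPM against 1.88 CPM. With Fcrls and Itgam, they were under 20 CPM in the other cells and passed the filter only through cluster 5. C1qa, C1qb and C1qc also counted here, but 5 cells held 98.1% of their 752 UMIs. Of 7 Toll-like and other innate receptors at 20 CPM 4 were higher and 0 lower. Among them were Tlr2, Cd14 and Nlrp3 with 91.9, 103 and 77.1 CPM against 12.9, 9.54 and 3.64 CPM. These named genes passed the filter only through cluster 5.

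Transcription factors of the DC lineage were divided, with 14 of 30 higher and 8 lower. Klf4, a factor needed by some cDC2s, had 724 CPM against 127 CPM, and Cebpb, a factor of monocytes and macrophages, 213 CPM against 28.7 CPM. Bcl11a had 70.2 CPM against 12.3 CPM. Id2 had 603 CPM against 2247 CPM, Irf1 105 CPM against 331 CPM and Irf8 88.2 CPM against 238 CPM. Irf4, which cDC2s use, had 66.5 CPM against 52.9 CPM, within 1.5-fold. The DC factor Zbtb46 had 58.3 CPM against 77.6 CPM, also within it. Of 22 immediate early genes 15 were higher and 3 lower, Egr3 and Egr2 most, with 217 and 145 CPM against 6.90 and 7.36 CPM. Of 19 NF-kB subunits and inhibitors 2 were higher and 10 lower. Relb had 231 CPM against 598 CPM, and Tnip3 274 CPM against 48.5 CPM.

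Genes of MHC class I presentation ran against those of MHCII. Of 14, 9 were lower and 2 higher, the latter being the endoplasmic reticulum chaperones Pdia3 and Calr. H2-K1 had 1740 CPM against 3509 CPM, and its activator Nlrc5 52.2 CPM against 151 CPM. Of 17 lysosome genes at 20 CPM 11 were higher and 4 lower. Cd68 had 160 CPM against 14.1 CPM and Cd63 271 CPM against 787 CPM. Of 19 genes of lipid uptake and cholesterol 8 were higher and 7 lower, with the lipoprotein lipase Lpl at 217 CPM against 7.13 CPM and the fatty acid carrier Fabp5 at 488 CPM against 1433 CPM. Among 12 glycolysis and hypoxia genes 7 were higher and 2 lower, and among 18 of the respiratory chain 4 and 0.

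Regulatory genes were higher in 7 of 12 cases and lower in 4. Havcr2 (TIM-3) and Lag3 had 82.5 and 84.7 CPM against 2.41 and 4.29 CPM, and Socs2 106 CPM against 630.2 CPM. Interferon-stimulated genes had 2 of 12 higher and 5 lower. Ifitm3 had 314 CPM against 20.9 CPM and Mx1 24.8 CPM against 115 CPM. Of 16 integrin and adhesion genes 9 were higher and 6 lower, of 27 actin and cytoskeleton genes 7 and 10, of 21 survival and death genes 2 and 9, of 15 cell cycle genes 8 and 1, of 18 heat shock genes 6 and 0, of 4 Notch genes 1 and 1, and of 21 ribosomal protein genes 3 and 0. Top2a, needed to divide chromosomes, had 47.9 CPM against 7.43 CPM, with 56.0% of its UMIs in 5 cells. 

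Markers of cDC2s were counted in the same way. Of 7 cDC2 markers at 20 CPM 6 were higher and 0 lower. The summed level was 1128 CPM against 87.2 to 418 CPM over the other clusters. The cells compared are all labelled cDC2s, and Mgl2, Clec10a, Cd209a and Csf1r on this list are leading genes, picked for their ratio. These counts therefore do not check the label, and Csf1r is also on the monocyte list below. Of 8 genes shared by cDCs 3 were higher and 2 lower, with Flt3 at 143 CPM against 169 CPM. Of 4 markers of the T-bet type of cDC2 3 were higher, but Tbx21 itself was at 1.23 CPM.

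Monocyte and macrophage markers were also high. Of 16 such markers 14 were listed and 10 reached 20 CPM, and all 10 were higher. The 14 together had 83.4 CPM in the other cells, of which Lyz2 made 33.2 CPM. Most of the 10 therefore passed the filter only through cluster 5 and could not be called lower. Among the 10, C1qa, C1qb and C1qc had 98.1% of their UMIs in 5 cells. Lyz2 and Csf1r are leading genes, picked for their ratio. The summed level of the 14 was 4616 CPM, against 22.5 to 421 CPM over the other clusters, 166 CPM in cDC1s and 112 CPM in LCs. Lyz2 made most of this sum. The markers Ly6c2, Fcgr1 and Vcan stood at 5.32, 1.02 and 0.41 CPM, and the Ly-6C antibody at a median of 5 counts in both groups. Monocyte-like and cDC2 genes were thus measured in the same cluster. Its CD64 and Ly-6C antibody medians of 0 and 5 counts do not set it apart. The other naive clusters had medians of 0 counts for CD64 and of 4 to 9 counts for Ly-6C.

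Markers of other cells differed from list to list. Of 5 cDC1 markers at 20 CPM 3 were higher and 2 lower. Wdfy4, Naaa and Cadm1 had 116, 119 and 45.2 CPM against 2.49, 7.32 and 2.07 CPM, while Irf8 and Batf3 were lower, and Xcr1 was at 12.7 CPM. For LCs 2 of 4 were higher and 2 lower, and Cd207 was near 0. For plasmacytoid DCs 2 of 3 were higher and 0 lower, Spib with 55.9 CPM against 30.5 CPM and Tcf4 with 224 CPM against 139 CPM. Their summed level of 429 CPM was above the 220 to 328 CPM of the other clusters, and Siglech had a UMI in 22 cells and 7.37 CPM. For B cells Ighm was the 1 gene at 20 CPM, with 53.0 CPM against 13.8 CPM and a UMI in 98 of 246 cells, but Cd79a and Pax5 were each under 3 CPM. The summed B cell level was 95.6 CPM against 15.2 to 695 CPM over the other clusters. T cell markers summed to 69.4 CPM against 38.2 to 1529 CPM, with 1 higher (Cd4) and 1 lower (Tcf7) of 2 at 20 CPM. NK cell genes had 1 higher of 1 (Klrd1), mast cell genes 1 of 1 (Kit), and plasma cell and RORgt cell genes 1 higher and 1 lower of 2 each. Neutrophil, stroma, keratinocyte and erythroid markers had 0 genes at 20 CPM. What part free RNA or shared droplets had in these levels was not tested, and no doublet caller was run.

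Cluster 5 was not uniform. Its cells carried a median of 3198 CPM of the 15 leading genes together, with quartiles of 823 and 8101 CPM, and 7 cells had no UMI of any. By CD301b class the summed level was 10974 CPM in CD301b-high, 8163 CPM in CD301b-intermediate and 4160 CPM in CD301b-low cells. Lyz2 stood at 6766, 4660 and 2185 CPM, Cd209a at 403, 314 and 173 CPM and Csf1r at 219, 169 and 89.0 CPM in this order. Ccr7 ran the other way, at 769, 1295 and 1662 CPM. H2-Ab1 stayed at 8714, 8527 and 9981 CPM and the CD11c antibody at 3.74, 3.74 and 3.60. Ccl4, by contrast, was highest in CD301b-low cells, at 206, 518 and 715 CPM. Median depth was 21227, 20987 and 16295 UMIs, and its part in these orders was not tested.

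Ranked by Ccr7 and divided into 4 bins of 61 or 62 cells, the cluster ran from 0 to 77.4 CPM of Ccr7 per cell in the lowest bin to 2846 to 8765 CPM in the highest. Lyz2 stood at 7228, 4177, 2441 and 718 CPM from the lowest to the highest bin. H2-Ab1 stood at 11018, 9558, 9518 and 6710 CPM, Klf4 at 967, 831, 652 and 383 CPM and Id2 at 158, 285, 653 and 1494 CPM. Fscn1 stood at 89.6, 173, 503 and 990.3 CPM. The bins are ranges of 1 score and not cell types.

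Mgl2 did not fall evenly, with 366, 411, 244 and 28.3 CPM, nor did Il1b, with 1859, 2163, 2473 and 1891 CPM. The CD11c antibody value was 3.96, 3.80, 3.67 and 3.27, and the MHCII value 4.89, 4.97, 5.04 and 5.15. Even in the highest bin, where Ccr7 reached 4404 CPM, pooled H2-Ab1 and Lyz2 remained higher than in any other naive cluster, whose highest levels were 1948 and 147 CPM. Lyz2 is itself a leading gene, picked for its ratio. In this bin the leading genes had 1379 CPM pooled but a median of 447 CPM per cell, so a pooled level need not describe most of its cells. Fscn1 there was at the lowest level of the other clusters, 991 CPM. Over the 246 cells, the Spearman correlation of Ccr7 with the leading genes was -0.65, that of Ccr7 with UMIs per cell -0.31, and that of the leading genes with UMIs per cell 0.41. Of the 246 cells 82 had a UMI of both Mgl2 and Ccr7, and 84 of both Mgl2 and Cd209a.

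**Figure D4:**
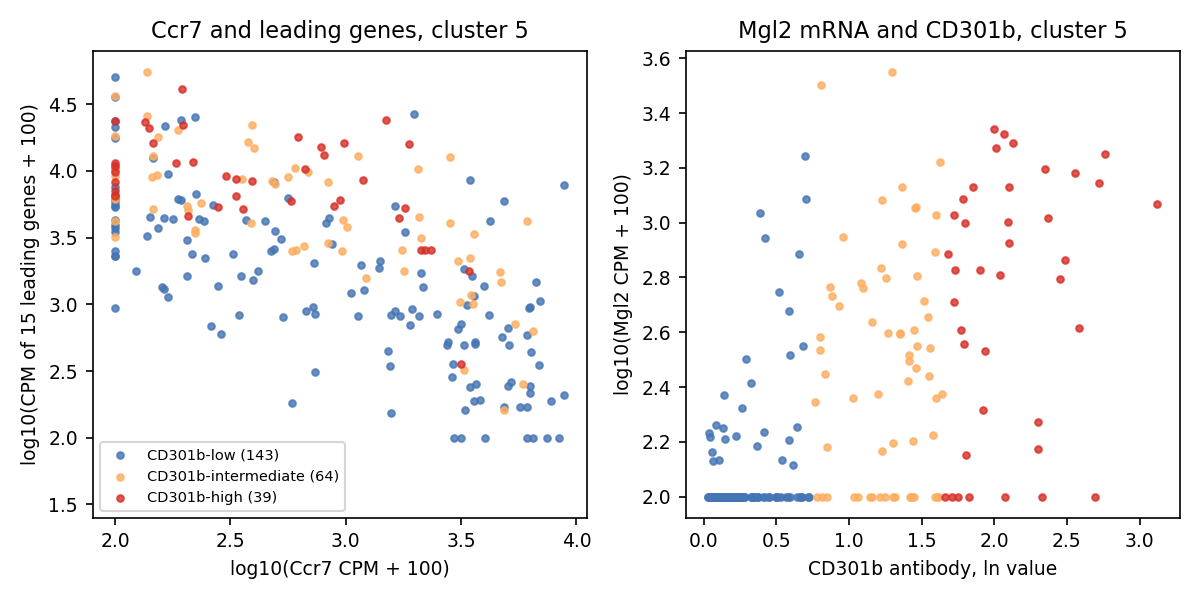
Each point is 1 of the 246 cells of cluster 5, coloured by CD301b class: log10(CPM + 100) of the 15 leading genes against that of Ccr7 (left, Spearman correlation -0.65) and log10(Mgl2 CPM + 100) against the CD301b antibody value (right, Spearman correlation 0.63). Cells with no UMI lie at 2.0 on the log10 axes, and the leading genes fall as Ccr7 rises.

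The leading genes were sought in the papain library, which the rule did not use. Its 6190 labelled cDC2s fall into 9 mRNA clusters of their own, whose numbers are not matched to the naive ones. All 15 genes were lower in every papain cluster than in naive cluster 5. Lyz2 had 4.58 to 64.6 CPM, Cd209a 0 to 14.4 CPM, Mgl2 0 to 7.40 CPM and Clec10a 0 to 1.48 CPM. Apart from Lyz2 no leading gene passed 18.1 CPM, and Fcrls was at 0 in all 9. Of the other 14, papain clusters 9 and 4 were the highest for 6 each and papain cluster 1 for 2. H2-Ab1 reached 3149 CPM and Klf4 329 CPM at most. Ccr7 ran from 711 to 4332 CPM, and 1 papain cluster, cluster 6, was below the 1389 CPM of naive cluster 5.

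Per cell, 123 of the 246 cells of cluster 5 were at or above their own median of 3198 CPM of the leading genes, by definition. In the other 6 naive clusters 5 cells were, and in all 2024 labelled naive cells 128 (6.32%). The genes and the threshold were both taken from cluster 5 set against these naive cells, so these 2 counts largely follow from that choice. In the 6190 labelled papain cells 7 were at or above it (0.11%, 0.05 to 0.23%), and the 2 shares are not like measures. Naive cDC1s had 5 such cells of 578, LCs 1 of 440 and the naive cells without a class 9 of 429 (2.10%, 0.96 to 3.95%). In the papain library cDC1s had 0 of 235 (interval up to 1.56%), LCs 2 of 881 and the cells without a class 4 of 290 (1.38%, 0.38 to 3.49%). Papain, the day after injection, the nodes taken and the library cannot be told apart here.

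**Figure D5:**
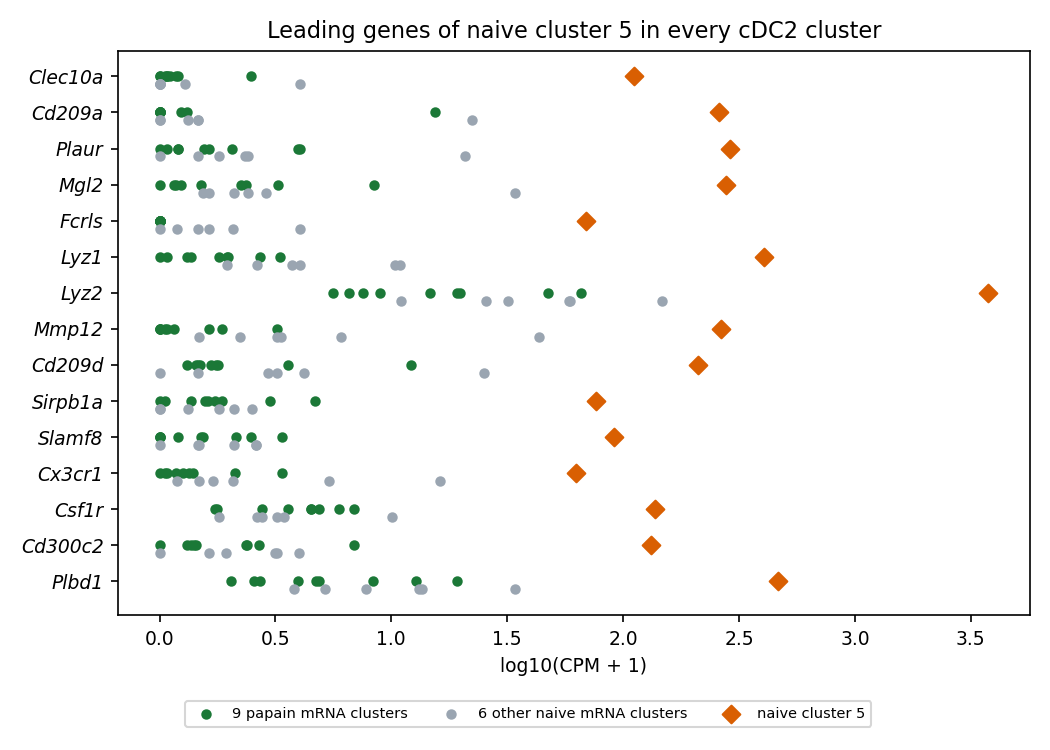
log10(CPM + 1) of the 15 leading genes in naive cluster 5 (orange diamonds), in the 6 other naive mRNA clusters (grey) and in the 9 papain mRNA clusters (green), each point 1 cluster with UMIs summed over its cells. For each gene the diamond lies to the right of all other points, and the highest papain point is Lyz2 at 64.6 CPM.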

How the data were processed

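Cells were sorted, run on the 10x 3′ v3 assay with 12 barcoded antibodies, and counted by the authors with Cell Ranger 3.0.1 on mm10, then processed in Partek Flow (version not given in the sources used here). The deposited expression values are log2 of CPM plus 1 per cell. The deposited antibody values are natural log (ln) values of each count over the geometric mean of the cell's 12 antibodies, and the deposited antibody totals and numbers of genes per cell are counts. The deposited "total count" of the expression table is a score, the sum of log2 values, and its deposited mitochondrial percent is a share of log2 values, so neither was used. UMIs were recovered from the steps of the log2 values, and 100% of 10855269 naive values up to 50 UMIs came out whole within 0.02. Some genes were left out of the table, and the genes listed held a median of 93.8% of the UMIs of cluster 5.

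UMIs were summed per cluster and given as CPM with exact Poisson intervals. Ratios have exact conditional binomial intervals, and a count of 0 was set to a floor of 3 counts over the group. With 1 library per group no p-value was computed. A gene counted as higher or lower from 1.5-fold with 20 CPM in the higher group. Named genes were the 15 highest and 15 lowest ratios at 50 CPM and 10 cells, up to 4 members per list by the extremes of the ratio, and Cd40, Il2, Il2ra, Pdcd1lg2, Mgl2 and Cd86; other genes of a list were chosen after their values were seen. The 46 gene and marker lists and the cluster were chosen with earlier results of these data known. The ratio was tested on simulated data. Doublets were not removed. Alternatives changed the pseudocount, filter, weighting, comparison cluster and cells. Python 3.11.15, numpy 2.4.6, scipy 1.17.1 and pandas 2.3.3 were used. Single values of a few list genes are not reported here, although the counts over their lists include them.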

Additional observations from a re-analysis of the deposited data

How the results depend on the processing

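All 180 recomputed ratios of the 30 named genes (mean over cells, 10 CPM added, equal weight of the other clusters, CD301b-low cells only, without the 5 richest cells, without Cd3e or Trac cells) kept their direction, with the 15 leading genes at least 6.64-fold higher and the 15 lowest at least 3.68-fold lower. The 30 genes were picked for the extremes of this ratio and recomputed in the same library. A kept direction was therefore nearly fixed in advance. The sizes of the ratios held less well, since 75 of the 180 lay over 1.5 times from the reported ratio. The number of genes higher was 987 to 1683 and the number lower 856 to 1574 under the alternatives, except for these: at 50 CPM they were 694 and 637, with no filter 5376 and 3680, and against cluster 6 alone, which is the shallowest, 2291 were lower. The CD301b-low share was 57.7 to 59.7%. Median depth was 16295 UMIs in CD301b-low cells. As a mean over cells, the antibody values of cluster 5 were 0.17 for CD103, 0.67 for CD11b, 3.54 for CD11c, 0.60 for CD24, 0.81 for CD301b, 0.84 for CD326, 0.053 for CD64, 0.78 for CD8a (0.79 in the other cells), 0.23 for Ly-6C and 0.13 for XCR1. In CD301b-low cells the medians were 0.61 for CD11b, 0.54 for CD24, 0.19 for CD301b, 0.046 for CD64, 0.56 for CD8a and 0.20 for Ly-6C. The cause was not tested. CD11c, CD172a and CD326 stayed above and MHCII and CD301b below the other cells under all 3 antibody alternatives. No paired analysis was possible because there is 1 library per group. With 1 library, no value here has a replicate error, and genes near 20 CPM rest on 97.7 UMIs of cluster 5.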
